A study of Mus musculus with 14 samples.

Results

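The genes of the Arp2/3 complex and of 2 actin regulators that work beside it were followed in cultured mouse epidermal progenitors from 2 skin regions. They are 10 of the 55228 gene symbols in the count table, picked by name: the 8 Arp2/3 subunit genes Arpc1a, Arpc1b, Arpc2, Arpc3, Arpc4, Arpc5, Actr2 and Actr3, together with Cfl1 (cofilin 1) and Pfn1 (profilin 1). All 10 passed the filter on low counts, as did 11757 genes in all, and the lowest count of any of them in any library was 217, of Arpc3. The study asks how tissue memory of an injury is held in progenitors that lie away from it. Epidermal cells of mice of genotype Lrig1CreER/Rosa-TdTomato, with treatment given as none, were taken from the tail at the time labelled 8w pw1, sorted as Lrig1 GL Sca1+ cells, grown for 1 week in keratinocyte medium and sequenced in bulk. The distal memory region gave 6 libraries (replicates 1 to 6) and the control, non-memory region 8 libraries (replicates 1 to 8). In this genotype an inducible Cre recombinase (CreER) follows the expression of Lrig1, a gene of progenitors in the upper hair follicle. Once induced, the recombinase switches on a red fluorescent reporter. Both regions share the genotype, the sort and the culture, so all values describe cells after a week in a dish, not cells in the skin.

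The Arp2/3 complex binds the side of an actin filament and starts a new filament from it as a branch. Arp2 and Arp3, encoded by Actr2 and Actr3, are actin-related proteins that form the base of the branch, and the Arpc subunits hold them together and dock on the mother filament. The complex works only once it is switched on by nucleation promoting factors of the WASP and WAVE families, which answer to signals from the cell membrane. Cofilin 1 severs and takes apart older filaments, and profilin 1 binds actin monomers and feeds them to growing ends. In keratinocytes, branched actin drives the lamellipodia used in wound closure and takes part in building cell-cell junctions.

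The libraries fall into 4 sets, named in the sample descriptions and nested in the regions: distal set 1 has 2 libraries and distal set 2 has 4, while control set 1 has 6 and control set 2 has 2. Total counts ran from 2137934 to 4513518 in distal libraries and from 4515646 to 7458872 in control libraries, so region, set and depth cannot be told apart. No label ties the libraries to separate animals or cultures, so the spread that the p-values use is that among libraries and may be technical. Over all tested genes 48.3% differed between the regions (24.3% higher and 24.1% lower in distal cells), with adjusted p under 0.05 in the quasi-likelihood test of edgeR, the threshold used throughout, and called "passed" below. Fold changes followed the base composition of transcripts, with a correlation across genes of 0.70 between GC content and log2 fold change (11654 genes, which are not independent replicates). The members' fold changes, the paralog ratios and the counts over gene lists are therefore given a second time with the trend on GC content and transcript length removed, where 18.9% of genes passed (10.4% higher and 8.57% lower). In bulk samples, fewer cells of a type and less RNA per cell cannot be told apart.

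The keratins of basal keratinocytes were abundant in both regions: Krt5 averaged 4330 ± 896 CPM in distal and 2065 ± 279.5 CPM in control libraries, and Krt14 averaged 9224 ± 1917 and 3989 ± 966.9 CPM (SD, n = 6 distal and 8 control). Here CPM, the usual unit of counts per library total, has its totals scaled by the trimmed mean of M-values (TMM). Lrig1 itself had 79.1 ± 10.4 CPM in distal and 43.9 ± 9.31 CPM in control libraries, and Ly6a, a gene for the Sca1 antigen, had 1388 ± 154.7 and 1880 ± 524.8 CPM. The 8 keratinocyte markers summed to 12500 to 19800 CPM in distal and 8720 to 12500 CPM in control libraries, a sum that Krt5 and Krt14 dominate. Of the 7 tested, 3 were higher and 3 lower, with a median log2 fold change of -0.31. Markers of other cells were low in most libraries. The 8 fibroblast markers summed to 2.3 to 106 CPM in distal (median 8.2) and 0.714 to 255 CPM in control libraries (median 6.6), with Lum at 0. The highest of those sums were in distal replicate 3 and control replicate 1. The 8 immune markers summed to 4.02 to 13.3 CPM and 3.99 to 9.3 CPM (Cd3e, Laptm5 and Tyrobp at 0), and the 5 melanocyte markers to 0.458 to 5.49 CPM and 0.237 to 4.36 CPM (Dct at 0). The 5 endothelial markers summed to 14.6 to 21.5 CPM in distal and 5.2 to 14.6 CPM in control libraries, with Cdh5 at 0, and their part in the results was not tested.

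Of the 10 genes, 5 were higher and 2 lower in distal cells, against 24.3% and 24.1% of all tested genes. They lie on several chromosomes, and Arpc1a (chr5:145083830-145108761) and Arpc1b (chr5:145114215-145130705) lie next to each other on the plus strand of chromosome 5 in GRCm38. The promoters of 5 members that differed are printed here, so that the letters before the starts of genes that moved the same way can be compared. Each is the 250 bases before the RefSeq start (GRCm38.p6), 5′ to 3′ on the strand of the gene, and capitals mark GGGCGG on either strand (a GC box, the core that Sp1 family factors bind) or a CArG box, the site of serum response factor, whose targets include many actin genes. With the trend in place, the first 4 belong to genes that were higher in distal cells and the last, of Actr2, to a gene that was lower. The Arpc1b window ends at 145114255, inside the gene span given above, which begins at 145114215. Its GC boxes at -13 and -6 from the RefSeq start lie within that span.
Arpc1b (chr5:145114006-145114255, plus strand): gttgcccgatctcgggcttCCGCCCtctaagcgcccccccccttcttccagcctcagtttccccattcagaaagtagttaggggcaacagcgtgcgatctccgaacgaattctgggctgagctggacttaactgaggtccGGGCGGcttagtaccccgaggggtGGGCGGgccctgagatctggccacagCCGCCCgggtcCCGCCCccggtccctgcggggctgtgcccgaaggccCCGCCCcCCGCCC
Arpc4 (chr6:113377863-113378112, plus strand): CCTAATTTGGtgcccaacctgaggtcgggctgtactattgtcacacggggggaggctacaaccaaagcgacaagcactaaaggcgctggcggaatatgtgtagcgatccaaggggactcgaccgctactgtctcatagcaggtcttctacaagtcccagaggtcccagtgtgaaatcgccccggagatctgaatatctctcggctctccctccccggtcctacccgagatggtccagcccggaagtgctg
Cfl1 (chr19:5490205-5490454, plus strand): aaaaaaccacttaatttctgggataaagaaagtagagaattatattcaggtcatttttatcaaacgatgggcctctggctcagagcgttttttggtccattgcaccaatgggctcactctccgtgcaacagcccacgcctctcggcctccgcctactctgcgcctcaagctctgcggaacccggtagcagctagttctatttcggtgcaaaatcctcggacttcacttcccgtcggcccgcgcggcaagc
Pfn1 (chr11:70654651-70654900, minus strand): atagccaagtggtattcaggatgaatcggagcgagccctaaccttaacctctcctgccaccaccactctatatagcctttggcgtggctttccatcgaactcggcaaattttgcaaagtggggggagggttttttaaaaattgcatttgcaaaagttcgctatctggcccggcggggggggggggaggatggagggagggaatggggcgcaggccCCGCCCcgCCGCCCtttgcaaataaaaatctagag
Actr2 (chr11:20112952-20113201, minus strand): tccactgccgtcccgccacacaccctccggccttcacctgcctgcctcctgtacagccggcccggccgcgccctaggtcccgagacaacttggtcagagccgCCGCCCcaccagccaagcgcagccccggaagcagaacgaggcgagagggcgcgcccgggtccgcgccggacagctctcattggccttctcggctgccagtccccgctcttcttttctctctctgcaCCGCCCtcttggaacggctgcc

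The Arpc1b promoter held 7 GC boxes, a number reached by 0.411% of the 32851 mouse promoters of the same length, while the promoters of Arpc4 and Cfl1, which were also higher in distal cells, held none. Pfn1 and Actr2 held 2 each although their differences ran in opposite directions with the trend in place. Arpc2, not printed here, was lower with the trend in place and with it removed, and its promoter also held 2. In all, 6 of the 10 promoters held a GC box, against 32.7% of all promoters. A CArG box stood in 1 of the 10, that of Arpc4, at the far edge of the window, against 1.47% of all promoters. The letters CCGGAAG, the core bound by ETS family factors, stood on either strand in 5 of the 10 (Arpc1a, Arpc3, Arpc4, Actr2 and Actr3) and in 6.91% of all promoters, CCAAT stood in 3 of the 10 and in 33.8% of all, and TATAAA in 0 of the 10 and in 12.4% of all. No match overlapped a match to another of these motifs in the sequences shown. The shares are over all promoters, whether or not the gene was expressed here, and the median GC content of those promoters was 52.4%. Promoters of the 10 ran from 51.2% GC (Arpc3) to 74.4% GC (Arpc5). Shares among promoters of expressed genes or of like GC content were not computed. A match is a description of letters, and binding was not measured.

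Among the 8 subunits of the complex, Arpc1a, Arpc1b and Arpc4 were higher in distal cells, Arpc2 and Actr2 were lower, and Arpc3, Arpc5 and Actr3 did not pass. Arpc1a and Arpc1b encode alternative forms of the same WD-repeat subunit, which contacts activators and the mother filament. Arpc1b had 343.2 to 440.7 CPM in distal libraries (median 371.7), against 127.1 to 231.9 CPM in control libraries (median 170.2). The regions did not overlap, and the fitted log2 fold change was 1.09 ± 0.14 (SE; adjusted p = 1.1e-05). Arpc1a had 157.8 to 238.3 CPM in distal libraries (median 191.3), against 85.9 to 156.1 CPM in control libraries (median 129.3). The ranges were close but did not touch, and the log2 fold change was 0.65 ± 0.16 (SE; adjusted p = 0.0034). Without distal set 2 the call on Arpc1a was lost (0.638, adjusted p = 0.053). Neither form passed with the trend removed: Arpc1b stood at 0.17 (adjusted p = 0.35) and Arpc1a at 0.34 (adjusted p = 0.17). When the GC content and length of the principal transcript were used in place of the median over transcripts, Arpc1b passed again at 0.76 (adjusted p = 0.00055), while Arpc1a did not (0.32, adjusted p = 0.21).

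Arpc4, one of the core subunits that hold the complex on the mother filament, was higher in distal cells with the trend in place and with it removed. Its levels were 179.5 to 283.8 CPM in distal libraries (median 265.4), against 89.6 to 131.5 CPM in control libraries (median 104.7), with no overlap. Its log2 fold change was 1.17 ± 0.14 (SE; adjusted p = 5.9e-06), and 0.61 with the trend removed (adjusted p = 0.00099). Arpc4 did not pass when the trend was removed and counts were also summed per set (0.624, adjusted p = 0.10), a fit with 4 points.

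Arpc2, which pairs with Arpc4 at the centre of the complex, ran the other way. It had 454.1 to 1001 CPM in distal libraries (median 665.5), against 1039 to 1466 CPM in control libraries (median 1166), so all distal libraries lay below all control libraries. The log2 fold change was -0.73 ± 0.17 (SE; adjusted p = 0.0016), and -0.91 with the trend removed (adjusted p = 0.0017). Arpc2 was the only member that passed as lower with the trend removed. It did not pass with the trend of principal transcripts (-0.40, adjusted p = 0.054), in which its GC content is 46.6% rather than 51.5%, nor with counts summed per set (-0.56, adjusted p = 0.13), without control set 1 (-0.726, adjusted p = 0.082) or over libraries above 4000000 counts (-0.303, adjusted p = 0.31). Its spread among distal libraries was the widest of the 10 genes there, with a coefficient of variation of 28.0%.

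Actr2, the Arp2 subunit, had 435.0 to 658.2 CPM in distal libraries (median 563.2), against 691.0 to 967.9 CPM in control libraries (median 813.9). The regions did not overlap and the log2 fold change was -0.56 ± 0.13 (SE; adjusted p = 0.0021). Its sign turned with the trend removed, at 0.36 ± 0.15 (SE; adjusted p = 0.098), which did not pass. Its transcripts have the lowest GC content of the 10 genes, 42.0%. The call was also lost without distal set 2 (-0.495, adjusted p = 0.051), without control set 1 (-0.569, adjusted p = 0.076) and with counts summed per set (-0.389, adjusted p = 0.29).

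Actr3, the Arp3 subunit, overlapped between the regions, with 350.4 to 690.8 CPM in distal libraries (median 473.4), against 371.1 to 711.8 CPM in control libraries (median 579.8), and its log2 fold change was -0.09 ± 0.18 (SE; adjusted p = 0.71). Arpc5, a subunit at the edge of the complex that tethers Arp2, had 298.1 to 439.2 CPM in distal libraries (median 330.9), against 248.9 to 487.7 CPM in control libraries (median 362.4), with a log2 fold change of -0.04 ± 0.16 (SE; adjusted p = 0.85). Arpc3, a subunit that touches Arp3, was the lowest of the 10 in CPM, with 68.0 to 105.6 CPM in distal libraries (median 87.8), against 70.8 to 164.8 CPM in control libraries (median 87.9), and a log2 fold change of -0.21 ± 0.20 (SE; adjusted p = 0.39). None of the 3 separated the regions, and the signs of Actr3 and Arpc5 turned with upper-quartile scaling, to 0.072 and 0.127. Arpc5 passed as higher with the trend removed (0.50, adjusted p = 0.019) and Actr3 did not (0.42, adjusted p = 0.078), while with the trend of principal transcripts Actr3 passed (0.57, adjusted p = 0.010) and Arpc5 did not (0.38, adjusted p = 0.075). Arpc3 stayed near 0 with the trend removed (-0.08, adjusted p = 0.81).

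Cofilin 1 and profilin 1 were both higher in distal cells, where they had the highest CPM of the 10 genes. Cfl1 had 903.4 to 1155 CPM in distal libraries (median 1064), against 355.6 to 590.0 CPM in control libraries (median 486.6). Pfn1 had 938.4 to 1425 CPM in distal libraries (median 1184), against 349.2 to 543.7 CPM in control libraries (median 432.4). Neither gene overlapped between the regions. The log2 fold change of Cfl1 was 1.08 ± 0.13 (SE; adjusted p = 7e-06), or 2.11-fold, and that of Pfn1 was 1.45 ± 0.14 (SE; adjusted p = 1.8e-06), or 2.74-fold. Both passed with the trend removed, at 0.71 for Cfl1 (adjusted p = 0.00021) and 0.41 for Pfn1 (adjusted p = 0.010). Pfn1 did not pass with a replicate block in that fit (0.361, adjusted p = 0.071). When counts were instead also summed per set, neither passed (0.81, adjusted p = 0.059 for Cfl1 and 0.47, adjusted p = 0.20 for Pfn1).

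**Figure D1:**
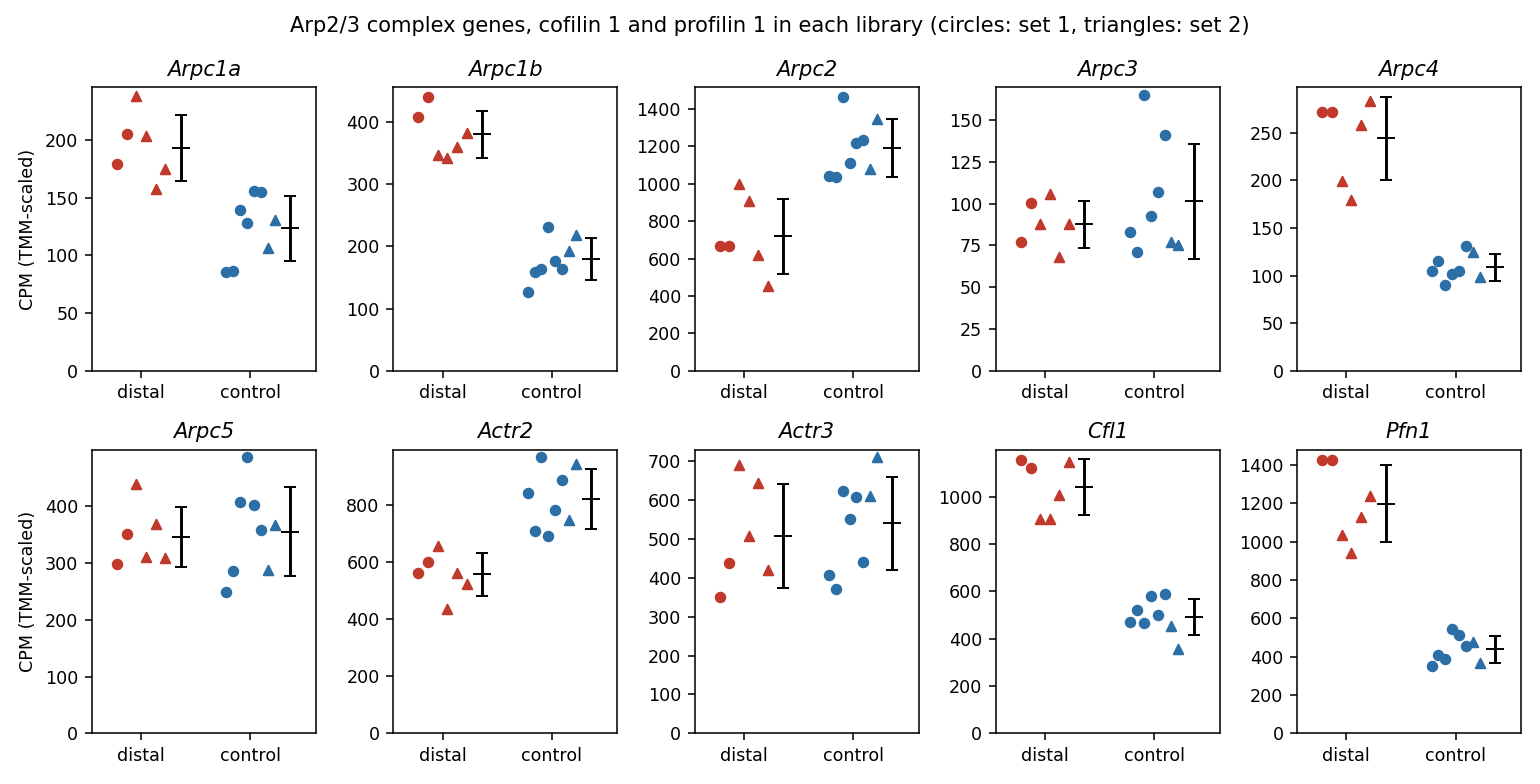
TMM-scaled CPM of each of the 10 genes (y axes start at 0 and differ between panels) in the 6 distal libraries, left, and the 8 control libraries, right, with the mean and SD as bars and a different symbol for each set. Arpc1a, Arpc1b, Arpc4, Cfl1 and Pfn1 lie wholly higher in distal libraries, Arpc2 and Actr2 wholly lower, and Arpc3, Arpc5 and Actr3 overlap.

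Against 24.3% and 24.1% of all tested genes, 5 and 2 of the 10 were higher and lower, so 7 of 10 passed in either direction, against 48.3%. Those shares are over genes of all GC contents, and shares within classes of GC content are given below. Without overlap between regions, distal libraries lay above control libraries for 5 of the 10 genes, against 12.7% of all tested genes, and below for 2 of the 10, against 5.65% (18.3% in either direction). With the trend removed, 4 of the 10 were higher (Arpc4, Arpc5, Cfl1 and Pfn1), against 10.4% of genes, and 1 was lower (Arpc2), against 8.57%. With the trend of principal transcripts, 5 of the 10 were higher (Arpc1b, Arpc4, Actr3, Cfl1 and Pfn1), against 9.20% of genes, and 0 were lower, against 7.65% (16.9% in either direction); at an unadjusted p under 0.05 that 0 was 1. With counts summed per set, the same 5 genes as at first were higher, against 18.8% of genes, and 0 were lower, against 11.7% (30.5% in either direction), with 0 also at an unadjusted p under 0.05. Arpc4, Cfl1 and Pfn1 passed as higher in all 4 of these fits. The members' median log2 fold change was 0.30, while the median over all tested genes was -0.16 under TMM, -0.18 under DESeq2 scaling and 0.00 under upper-quartile scaling, a shift that applies to every value here. The 7 members that passed kept their signs in these 3 scalings.

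**Figure D2:**
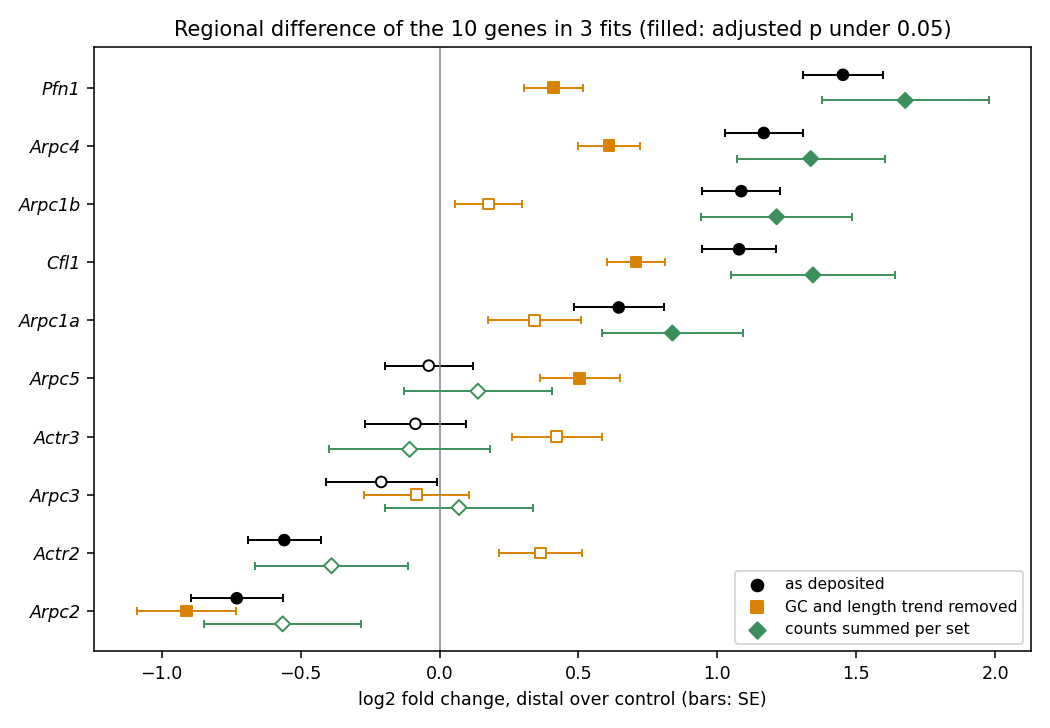
Log2 fold change, distal over control (x axis, bars are SE), of the 10 genes (y axis) with libraries as deposited, with the GC and length trend removed, and with counts summed per set; filled symbols had adjusted p under 0.05. Arpc4, Cfl1 and Pfn1 are filled and positive in all 3, and Actr2 stands at 0.36 with the trend removed, against -0.56 with it in place.

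The fold changes of the 10 genes ran with their GC content, though not in the same order. Across the 10 genes the correlation of the 2 was 0.79, a description over genes that were all read from the same 14 libraries, and 0.86 with the GC content of principal transcripts. Once the trend was removed it was -0.03. Pfn1 and Arpc1b, at 58.3% and 56.6% GC, lie in the top of 5 equal classes of tested genes by GC content. In that class the median log2 fold change was 1.09 and 67.1% of genes passed as higher. Arpc4, Cfl1 and Arpc1a lie in the next class, with a median of 0.50 and 40.4% of genes higher. Actr2 lies in the lowest class, with a median of -0.89, so its -0.56 was less negative than that median, and 53.3% of genes there passed as lower. Arpc2 and Arpc3 lie in the middle class, with a median of -0.17 and 19.8% of genes lower, and Arpc2 fell further than that median.

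**Figure D3:**
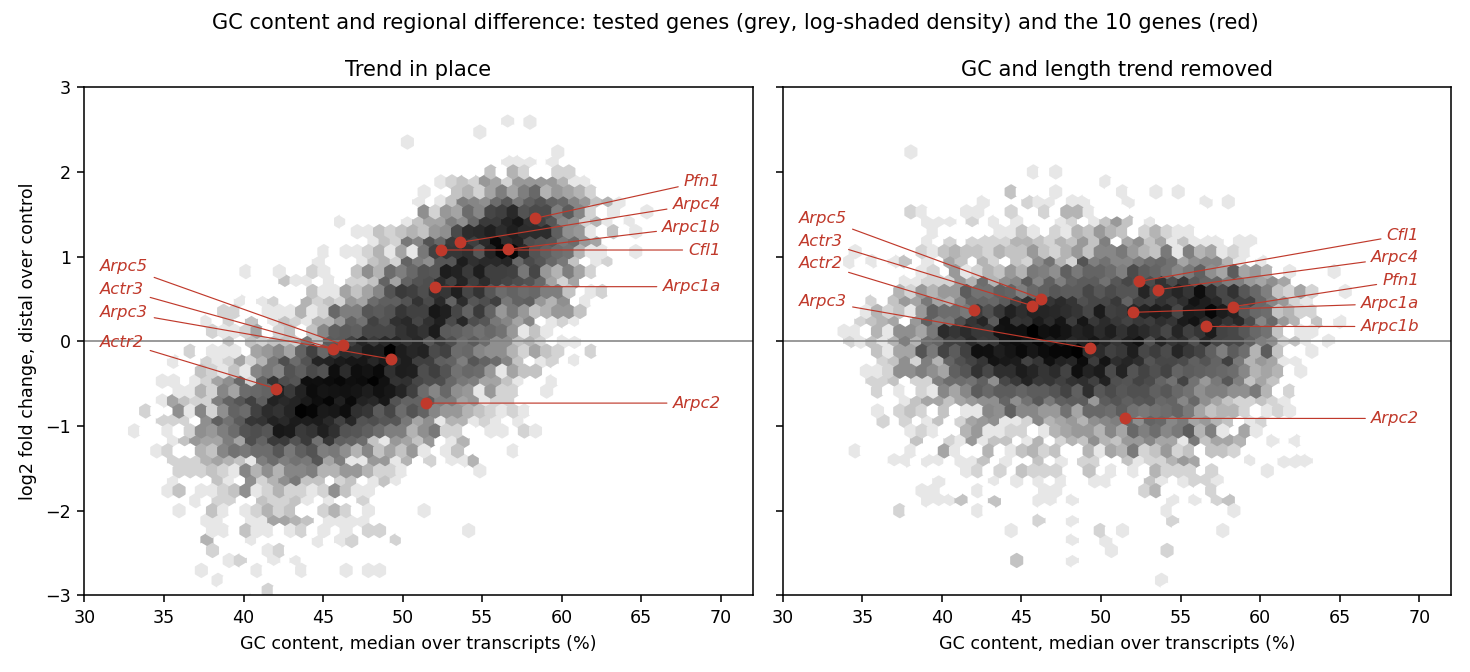
Log2 fold change, distal over control (y axis), against the median GC content of a gene's transcripts in percent (x axis) for tested genes (grey, darker where genes are denser) and the 10 genes (red), with the trend in place, left, and removed, right. At left the 10 genes lie within the grey cloud, with Actr2 at 42.0% GC and Pfn1 at 58.3% GC at the ends and Arpc2 below its neighbours, and at right Arpc2 stands lowest of them at -0.91.

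Within a region, the sets were compared as a measure of how far libraries of like cells differ. No gene passed in either comparison of set 2 with set 1: 0% of 11757 genes in distal and in control cells in edgeR, with 921 and 969 genes at an unadjusted p under 0.05, and 0 in limma-voom, with 516 and 1136. The largest of the members' values for distal cells was that of Actr3, at 0.52 ± 0.26 (SE; adjusted p = 0.66), and Actr3 stood at 0.40 ± 0.23 in control cells (SE; adjusted p = 0.66). For control cells it was that of Arpc3, at -0.53 ± 0.30 (SE; adjusted p = 0.66), with -0.02 ± 0.31 in distal cells (SE; adjusted p = 0.99). In size these are close to the regional difference of Actr2 and below those of Arpc1b, Arpc4, Cfl1 and Pfn1.

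Per kilobase of the principal transcript, Pfn1 led in distal cells with 1392 ± 234.4 CPM per kb (SD, n = 6), followed by Arpc2 with 499.4 ± 139.6 and Cfl1 with 441.5 ± 49.99, of which the last 2 overlapped. After a gap came Actr3, Arpc5, Actr2, Arpc1b, Arpc1a, Arpc4 and Arpc3, from 198.3 down to 97.6 CPM per kb, each overlapping the next. In control cells Arpc2 led with 828.7 ± 107.0 CPM per kb (SD, n = 8), above Pfn1 with 508.6 ± 81.8. Actr2, Actr3, Cfl1, Arpc5, Arpc3, Arpc1a, Arpc1b and Arpc4 followed, from 226.4 down to 47.9 CPM per kb, each overlapping the next. The order of levels thus differed at the top, where Pfn1 lay above Arpc2 in distal cells and below it in control cells. The order of genes rests on the length chosen. Principal transcripts have 3105 nt for Arpc1b, 2354 nt for Cfl1, 2270 nt for Arpc4 and 1439 nt for Arpc2. The medians over transcripts are 772, 960, 1058 and 1358 nt. The same principal lengths enter the shares per length below. Neither order nor shares were repeated with other lengths or with the trend removed.

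Although single subunits differed up to 2.24-fold, as Arpc4 did, the sum of the 8 Arp2/3 genes took a like share of the counts: 0.327% ± 0.0233 in distal and 0.318% ± 0.0278 in control libraries (SD, n = 6 and 8). On the TMM scale the sums were 3037 ± 347.4 CPM in distal and 3424 ± 416.4 CPM in control libraries, so even the order of the regions depended on the scaling. With Cfl1 and Pfn1 included, the 10 genes took 0.572% ± 0.0615 of counts in distal and 0.406% ± 0.0282 in control libraries, and those ranges, 0.481 to 0.643% and 0.364 to 0.438%, did not overlap. TMM-scaled sums of the 10 genes did overlap, at 4838 to 5622 CPM in distal and 3766 to 4876 CPM in control libraries. Neither sum includes the paralogs Arpc5l and Actr3b. Within the sum of the 8 genes per length, Arpc2 made up 33.3% ± 5.64 in distal and 47.5% ± 1.71 in control libraries. Arpc1b made up 8.45% ± 1.56 in distal and 3.33% ± 0.607 in control libraries, and Arpc4 7.49% ± 2.10 and 2.80% ± 0.587. Shares of transcripts say nothing of the make-up of the assembled protein complex, which was not measured.

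Several subunits and regulators have a paralog, and the balance within such pairs was tested as a log2 ratio of CPM + 1 in each library, with two-sided exact permutation tests over 3003 regroupings, whose smallest p is 0.00033, adjusted over 6 ratios. Cfl2 encodes the muscle-type cofilin. The ratio of Cfl2 to Cfl1 averaged -2.68 ± 0.54 in distal and -0.72 ± 0.59 in control libraries (SD; exact permutation, adjusted p = 0.001), a difference of -1.96 with no overlap. It remained past the threshold at -0.68 with the trend removed (adjusted p = 0.008 in the exact permutation test). The ratio of Dstn, which encodes the related filament-disassembling protein destrin, to Cfl1 averaged -0.21 ± 0.45 in distal and 1.01 ± 0.40 in control libraries (SD; exact permutation, adjusted p = 0.001), but differed by only -0.22 with the trend removed (adjusted p = 0.26 in the exact permutation test). In CPM not scaled by length and with the trend in place, Cfl1 and Dstn were thus near parity in distal cells, while Dstn led in control cells. The shift between regions did not pass once the trend was removed.

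Of the Arp2/3 pairs, Actr3b over Actr3 averaged -6.47 ± 0.32 in distal and -5.13 ± 0.64 in control libraries (SD; exact permutation, adjusted p = 0.004). Actr3b was scarce in both, at 5.02 ± 2.43 CPM in distal and 15.9 ± 7.51 CPM in control libraries. Arpc5l over Arpc5 averaged -2.04 ± 0.17 in distal and -1.56 ± 0.28 in control libraries (SD; exact permutation, adjusted p = 0.004). Both ratios were lower in distal cells also with the trend removed, by -1.89 and -0.88 (exact permutation, adjusted p = 0.003 and 0.002). Arpc1b over Arpc1a averaged 0.98 ± 0.27 in distal and 0.55 ± 0.34 in control libraries (SD; exact permutation, adjusted p = 0.024), and the difference of 0.44 turned to -0.17 with the trend removed (adjusted p = 0.31 in the exact permutation test). Without distal replicate 1 or 5 that ratio did not pass (0.396 and 0.395, each with adjusted p = 0.055 in the exact permutation test). Pfn2 over Pfn1 averaged -5.51 ± 1.02 in distal and -3.95 ± 1.04 in control libraries (SD; exact permutation, adjusted p = 0.013), and with the trend removed the difference was -0.00. Pfn3 and Pfn4 had no counts in any library.

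**Figure D4:**
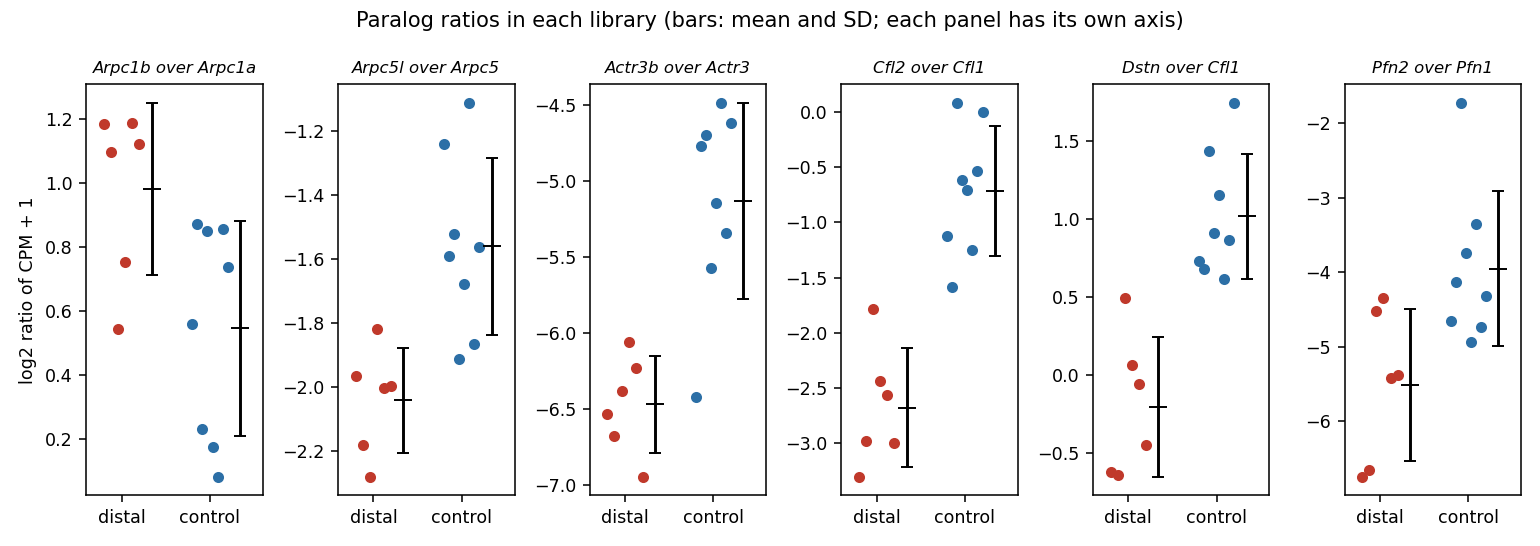
Log2 ratio of CPM + 1 of each paralog pair (y axes differ between panels) in the 6 distal libraries, left, and the 8 control libraries, right, with the mean and SD as bars. Cfl2 over Cfl1 and Dstn over Cfl1 do not overlap between the regions, and the other 4 ratios overlap.

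Fitted gene by gene, Actr3b (-1.63 ± 0.41, SE; adjusted p = 0.0032), Arpc5l (-0.54 ± 0.16, SE; adjusted p = 0.010) and Cfl2 (-0.90 ± 0.22, SE; adjusted p = 0.0033) were lower in distal cells. Dstn (-0.13, adjusted p = 0.51) and Pfn2 (-0.34, adjusted p = 0.57) did not pass. Of these 5, Actr3b was lower with the trend removed (-1.66, adjusted p = 0.0092), and with the trend of principal transcripts Arpc5l was lower too (-0.55, adjusted p = 0.018). The call on Arpc5l was also lost without distal replicate 1, 2 or 6 or control replicate 6 (-0.425 to -0.362, adjusted p = 0.060 to 0.063), with upper-quartile scaling (-0.372, adjusted p = 0.062), with counts summed per set (-0.31, adjusted p = 0.37) and without either distal set or control set 1 (-0.661 to -0.25). Dstn passed as higher with the trend removed (0.48, adjusted p = 0.012), but not with the trend of principal transcripts (0.34, adjusted p = 0.084). Over libraries above 4000000 counts, Actr3b (-1.166, adjusted p = 0.23), Arpc5l (-0.423, adjusted p = 0.33) and Cfl2 (-0.517, adjusted p = 0.36) did not pass. Actr3b, with a lowest count of 6 in distal libraries, also did not pass with the trend removed and counts summed per set (-1.861, adjusted p = 0.059).

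Of the factors that switch the complex on, 16 of 23 listed genes were tested, 2 were higher and 6 lower in distal cells (24.3% and 24.1% of all tested genes), and the median log2 fold change was -0.59, against -0.16 over all genes. Jmy, a nucleator that also makes unbranched filaments, had 106.8 ± 46.0 CPM in distal and 285.6 ± 71.0 CPM in control libraries (SD, n = 6 and 8) and a log2 fold change of -1.41 (adjusted p = 0.00019). Brk1, the smallest subunit of the WAVE complex, had 134.6 ± 16.3 CPM in distal and 85.9 ± 8.86 CPM in control libraries and a log2 fold change of 0.65 (adjusted p = 0.00041). Both passed with the trend removed, at -1.83 and 0.63, and Jmy stood at -0.81 with the trend of principal transcripts (adjusted p = 0.013). Washc4 of the endosomal WASH complex (-1.05, adjusted p = 0.0034) and Cyfip1 of the WAVE complex (-0.61, adjusted p = 0.0047) fell, and neither passed with the trend removed (-0.04 and -0.22). In that fit 1 of the 16 was higher and 3 were lower, against 10.4% and 8.57% of all genes.

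Of the proteins that stabilise or take apart branches or inhibit the complex, 9 of 13 listed genes were tested. In edgeR 7 were higher and 0 lower (24.3% and 24.1% of all tested genes), with a median of 0.89. The count of lower genes was 0 also at an unadjusted p under 0.05 and in DESeq2 and limma-voom, and 0 to 1 without single libraries. Coro1b and Coro1c encode coronins, which help to dismantle branches, and Coro1b had 96.5 ± 22.1 CPM in distal and 36.2 ± 10.2 CPM in control libraries (log2 fold change 1.41, adjusted p = 2e-05). Coro1c stood at 0.83 (adjusted p = 0.00018). Cttn, which encodes the branch stabiliser cortactin, had 267.5 ± 36.4 CPM in distal and 139.5 ± 19.5 CPM in control libraries (0.94, adjusted p = 2.6e-05), and Dbnl, which encodes another actin-binding adaptor, stood at 1.17 (adjusted p = 0.00011). Of the 9, only Cttn passed with the trend removed (0.55, adjusted p = 0.0041), which is 1 of 9 against 10.4% of all genes, while 3 were higher and 0 lower at an unadjusted p under 0.05. With the trend of principal transcripts 2 of the 9 were higher.

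Among regulators of cofilin and of filament disassembly, 12 of 13 were tested, 6 were higher and 1 lower (24.3% and 24.1% of all tested genes), with a median of 0.57. Limk1 and Limk2 encode LIM kinases, which inactivate cofilin by phosphorylation. Limk1 was scarce, with 9.72 ± 3.88 CPM in distal and 2.79 ± 1.12 CPM in control libraries (1.79, adjusted p = 0.0013), and Limk2 stood at 0.58 (adjusted p = 0.0022). Wdr1, which speeds disassembly by cofilin, was higher at 0.57 (adjusted p = 0.001), and Twf1, which encodes the monomer-binding protein twinfilin 1, was lower at -0.82 (adjusted p = 0.0018). Once the trend was removed 0 of the 12 passed in edgeR, against 10.4% higher and 8.57% lower over all genes, and at an unadjusted p under 0.05 there were 2 higher and 0 lower.

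Capping and severing proteins were split, with 3 higher and 2 lower of 7 tested and 9 listed (24.3% and 24.1% of all tested genes), and a median of -0.10. Capg stood at 1.53 (adjusted p = 5.4e-06) and Capzb, the beta subunit of capping protein, at 1.15 (adjusted p = 4.6e-06), while Capza2, an alpha subunit of the same heterodimer, stood at -1.11 (adjusted p = 8.8e-05). Capzb had 344.5 ± 59.8 CPM in distal and 155.1 ± 17.4 CPM in control libraries, and Capza2 had 365.1 ± 91.7 and 788.9 ± 165.9 CPM. In the fit without the trend, Capg (0.58, adjusted p = 0.011) and Capzb (0.82, adjusted p = 0.00015) passed as higher and 0 of the 7 as lower, at an adjusted or an unadjusted p under 0.05. Gsn, which encodes the severing protein gelsolin, stood at 0.93 (adjusted p = 1.2e-05) and at 0.02 with the trend removed (adjusted p = 0.89).

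Of the elongators of unbranched filaments, 9 of 11 were tested, 2 were higher and 4 lower (24.3% and 24.1% of all tested genes), with a median of -0.61. Enah, a relative of Vasp that shields growing ends from capping, had 134.1 ± 27.4 CPM in distal and 346.5 ± 44.0 CPM in control libraries (-1.37, adjusted p = 3.4e-06), and Diaph3, a formin, stood at -1.34 (adjusted p = 1.4e-05). Both passed with the trend removed, at -1.26 (adjusted p = 3.9e-05) and -0.62 (adjusted p = 0.012), and Enah stood at -2.07 with the trend of principal transcripts (adjusted p = 2e-06). The formin Daam1 (-0.80, adjusted p = 0.00013) and Vasp (0.87, adjusted p = 0.00046) did not pass with the trend removed (-0.05 and -0.24). In that fit 1 of the 9 was higher and 2 were lower, against 10.4% and 8.57% of all genes.

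The 4 genes of the actin monomer pool, all tested, held 3 that were higher and 0 that were lower (24.3% and 24.1% of all tested genes), with a median of 0.96, and the same counts at an unadjusted p under 0.05 and in DESeq2 and limma-voom. Actb, the gene of cytoplasmic beta actin, had 9950 ± 2027 CPM in distal and 4794 ± 709 CPM in control libraries (1.05, adjusted p = 3e-05), and Actg1, that of gamma actin, had 1484 ± 254.2 and 521.9 ± 136.9 CPM (1.51, adjusted p = 4e-06). Tmsb10, which encodes the monomer-binding peptide thymosin beta 10, stood at 0.86 (adjusted p = 0.0021), and Tmsb4x did not pass (-0.30, adjusted p = 0.17). Only Actg1 of the 4 passed with the trend removed (0.62, adjusted p = 0.0026), while Actb stood at 0.32 (adjusted p = 0.078). With the trend of principal transcripts Actb passed too, at 0.83 (adjusted p = 0.00027).

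**Figure D5:**
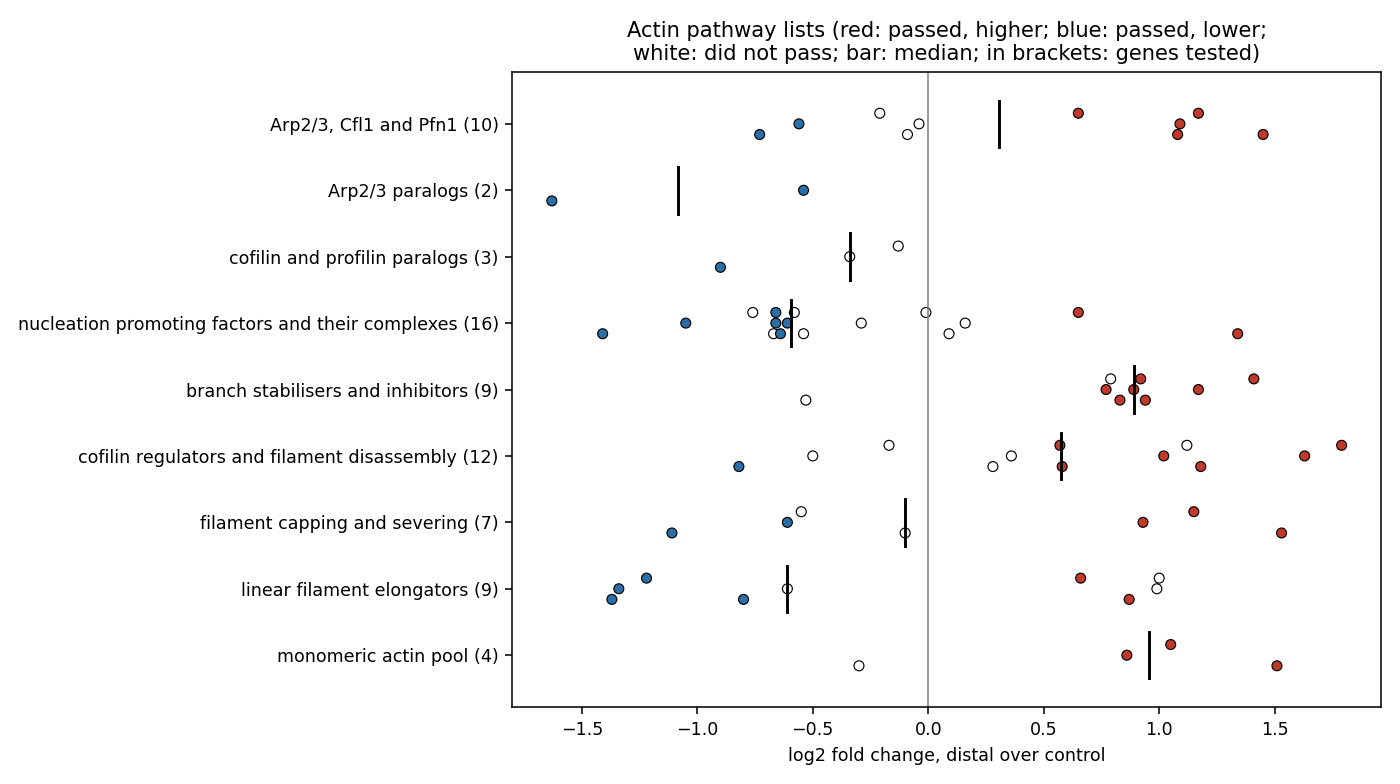
Log2 fold change, distal over control (x axis), of every tested gene in each actin list (y axis, number tested in brackets); red and blue points passed as higher and lower, white points did not pass, and bars are medians. The branch stabilisers and inhibitors and the actin monomer pool hold 7 of 9 and 3 of 4 genes higher and 0 lower, while the nucleation promoting factors hold 2 higher and 6 lower of 16.

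Once the difference between regions was subtracted, subunits varied together only in part over the 14 libraries, which also share depth and base composition. The highest pairwise correlations were 0.72 between Arpc1a and Arpc5 and 0.70 between Cfl1 and Pfn1, and the lowest were -0.76 between Arpc2 and Arpc4 and -0.64 between Actr3 and Cfl1. Arpc2 and Arpc4, whose products touch in the complex, thus varied in opposite directions both between and within regions. Of 4922 genes with a mean log2 CPM of at least 5 outside the 10, those that followed the summed Arp2/3 level most closely within regions were Sept10 (r = 0.964), Rhob (0.904), Rab21 (0.894), Rap2b (0.880) and Zranb2 (0.879). The largest of so many correlations over 14 libraries are high in part by selection. The summed level is in CPM, so Arpc2, Actr2 and Actr3 weigh most in it.

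Reads shared with other genes could touch the values of several members. Arpc1b shares 931 of its 5115 exon bases with Pdap1 on the opposite strand, and the use of strand in counting is not given in the sources, so reads of that stretch cannot be told apart. Pdap1 had 1425 counts in distal and 2344 in control libraries, against 7608 and 7921 of Arpc1b. Arpc4 shares 283 exon bases with Ttll3 on the same strand (29 and 71 counts), and Cfl1 shares 468 with Snx32 on the opposite strand (0 counts in both). Processed pseudogenes of at least 90% identity took few counts: the most, those of Gm8822, which is 98.8% identical to Actr3, were 64 in distal and 273 in control libraries, against 10749 and 24053 of Actr3. AC154544.1, a pseudogene 96.1% identical to Arpc2, has no row of counts. The treatment of reads that match several places is not known, so these counts do not show how many reads the members lost.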

How the data were processed

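Bulk RNA of 14 small pools of sorted, cultured mouse epidermal cells was copied with Smart-seq2 and made into Nextera XT libraries, per the labels' protocols. What the authors deposited is a single table of read counts by gene symbol, with no normalisation. HISAT2, featureCounts and the build mm10 (GRCm38) are named for it, per the submitters' processing notes. The sources used here do not give how strand and multi-mapping reads were treated in counting. Of 55228 symbols, 26607 had a count and 11757 passed filterByExpr.

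Counts were tested in R 4.3.3 with edgeR 4.0.16 (TMM, two-sided quasi-likelihood F test, robust) and Benjamini-Hochberg adjustment over all 11757 genes, at 0.05. A log2 fold change is the distal minus the control value, and its SE is the absolute value divided by the square root of F. Correlations between libraries and the trend used log2 CPM with a prior count of 2. Correlations between genes and paralog ratios used log2(CPM + 1), where the pseudocount shrinks ratios of scarce genes. The summed level of the complex entered its correlations as log2 of the sum, with no pseudocount. For the trend, each library's deviation from gene means was regressed on natural splines, each with 4 degrees of freedom, of the median GC content and log2 length of GENCODE transcripts, known for 11654 genes (99.1%), and entered as offsets. Set 2 was compared with set 1 of the same region in a single model of the 4 sets. The edgeR and limma-voom fits between regions and the removal of the trend were tried on simulated counts, and the other steps were not. Promoters and motif shares come from RefSeq (GRCm38.p6), where all 10 members matched.

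The members, the gene lists and the tests were chosen with earlier results of these data known. Genes named besides the members are their paralogs, up to 4 genes of smallest p per pathway list, Krt5, Krt14, Lrig1, Ly6a and the 5 most alike genes. A list of upstream genes is not reported here. Alternatives were other scalings, filters, DESeq2 1.42.0, voom in limma 3.58.1, thinned counts, counts summed per set, a replicate block, and leaving out sets or libraries. The trend of principal transcripts and the restriction to libraries above 4000000 counts were chosen after seeing the data. The table has no molecular identifiers, and counting error is only part of the error of a library.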

Additional observations from a re-analysis of the deposited data

How the results depend on the processing

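Of 32 alternatives for each gene, Arpc4 and Cfl1 kept their call in 31, Pfn1 in 30, Arpc1b in 29, Arpc2 in 28, Arpc1a in 27 and Actr2 in 24, and leaving out single libraries ended no call on these 7. Depth, set and region cannot be told apart, and the causes of the changes below were not tested, except that summing per set leaves 4 points and leaving out a set leaves fewer libraries. The 5681 genes past the threshold became 3582 with counts summed per set, 2208 with the GC and length trend removed, 1964 with the trend of principal transcripts removed, 313 with the trend removed and counts summed, 1243 over libraries above 4000000 counts and 2267 without control set 1, and ran from 4911 to 5842 without single libraries. The 2 members lower in distal cells became 0 with counts summed, with the trend of principal transcripts removed, above 4000000 counts and without control set 1, and 1 with the trend removed, with it removed and counts summed, and without distal set 2. The 5 higher members became 0 with the trend removed and counts summed. Replicate numbers are shared between the regions but do not pair the libraries: same-numbered libraries correlated at -0.017 to 0.11 after subtraction of region means, and 2 of 6 correlated best with their own number. With the replicate block 5 members were higher and 2 lower, and with the block and the trend removed 3 and 1 (Pfn1 did not pass), with 1905 genes past the threshold. Without the filter on low counts, 81 genes in distal and 113 in control cells differed between sets, and without control replicate 7 there were 2 in control cells (0 to 2 without single libraries).

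Of the ratios, Arpc1b over Arpc1a was -0.166, Dstn over Cfl1 -0.219 and Pfn2 over Pfn1 -0.00 with the trend removed. With the replicate block Arpc1b over Arpc1a was 0.521 and Arpc5l over Arpc5 was -0.533, both with adjusted p = 0.062 in exact permutation tests whose smallest p is 0.031. Without control set 1 there are 28 regroupings, whose smallest p, 0.036, can pass only if at least 5 of the 6 ratios reach it, so that setting says nothing of stability, and the values were 0.184 for Arpc1b over Arpc1a, -0.328 for Arpc5l over Arpc5, -1.488 for Actr3b over Actr3, -2.411 for Cfl2 over Cfl1, -1.506 for Dstn over Cfl1 and -0.991 for Pfn2 over Pfn1. Arpc1b over Arpc1a also missed the threshold without distal set 1 (0.356) and without distal set 2 (0.597), Pfn2 over Pfn1 without distal set 1 (-0.969) and Arpc5l over Arpc5 without distal set 2 (-0.514). Without single libraries the ratios ran from 0.370 to 0.524 for Arpc1b over Arpc1a, -0.532 to -0.418 for Arpc5l over Arpc5, -1.522 to -1.243 for Actr3b over Actr3, -2.137 to -1.833 for Cfl2 over Cfl1, -1.359 to -1.116 for Dstn over Cfl1 and -1.794 to -1.245 for Pfn2 over Pfn1.

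Signs turned in the following log2 fold changes. With the trend removed they were 0.364 for Actr2, 0.422 for Actr3, 0.504 for Arpc5, 0.483 for Dstn, -0.070 for Limk2, 0.166 for Pfn2, -0.159 for Tmsb10, 0.168 for Tmsb4x and -0.245 for Vasp. With the trend removed and counts summed they were 0.501 for Actr2, 0.259 for Actr3, 0.026 for Arpc3, 0.575 for Arpc5, 0.018 for Cfl2, 0.475 for Dstn, -0.126 for Limk2, 0.252 for Pfn2, 0.390 for Tmsb4x and -0.177 for Vasp. With the trend of principal transcripts removed they were 0.404 for Actr2, 0.567 for Actr3, 0.376 for Arpc5, 0.088 for Cfl2, 0.039 for Cyfip1, 0.335 for Dstn, -0.263 for Tmsb10, 0.086 for Tmsb4x and -0.148 for Vasp. With the replicate block and the trend removed they were 0.316 for Actr2, 0.560 for Actr3, 0.498 for Arpc5, 0.028 for Cfl2, 0.496 for Dstn, -0.045 for Limk2, 0.214 for Pfn2, -0.358 for Tmsb10, 0.051 for Tmsb4x and -0.370 for Vasp, and with the block alone 0.011 for Actr3. Upper-quartile scaling gave 0.072 for Actr3, 0.127 for Arpc5 and 0.029 for Dstn. Counts summed gave 0.070 for Arpc3, 0.138 for Arpc5 and 0.052 for Tmsb4x. Libraries above 4000000 counts gave 0.169 for Actr3, 0.094 for Arpc5, 0.164 for Dstn and 0.327 for Pfn2. Leaving out control set 1 gave 0.235 for Arpc3, 0.113 for Arpc5, 0.736 for Pfn2 and 0.229 for Tmsb4x, leaving out control set 2 gave 0.108 for Actr3 and 0.016 for Arpc5, and leaving out distal set 1 gave 0.141 for Actr3, 0.082 for Arpc5, 0.077 for Dstn and 0.064 for Pfn2. Without single libraries Actr3 ran from -0.151 to 0.084, Arpc5 from -0.100 to 0.107, Dstn from -0.175 to 0.018 and Pfn2 from -0.461 to 0.229. The difference of distal set 2 from set 1 for Arpc3, -0.02, was 0.021 with the trend removed, 0.028 without the filter on low counts and ran from -0.270 to 0.062 without single libraries.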
